A study of Mus musculus with 14 samples.

Results

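The genes described here are 9 sialyltransferases (St3gal1, St3gal2, St3gal4, St3gal6, St6gal1, St6galnac4, St8sia1, St8sia4 and St8sia6) and Gcnt1, an enzyme that branches the glycans some of them act on. They were taken by name from a table of read counts and make up 10 of its 22048 protein-coding genes. All 10 were among the 12343 genes that passed a filter on low counts, so no member was left out of a test. RNA sequencing had been done on 14 libraries of CD4+ T cells from spleen and peripheral lymph nodes of mice that carry a yellow fluorescent protein (YFP) reporter of interferon-gamma on the C57BL/6 background, and every group described here shares that genotype. YFPpos SGC0946 (n = 3) and YFPneg SGC0946 (n = 3) were the reporter-positive and reporter-negative cells sorted after 4 days of Th1 culture with 1 µM SGC0946, which inhibits DOT1L, a methyltransferase of histone H3. YFPpos SGC0649 (n = 3) and YFPneg SGC0649 (n = 2) were the same sorts after culture with 1 µM SGC0649, its inactive control compound. Naive CD4+ T cells (n = 3) were sorted directly and never cultured. Antibodies to CD3 and CD28 on the plate (1 µg/ml each) activated the cells, and the medium held 10 ng/ml of IL-2, 10 ng/ml of IL-12 and 10 µg/ml of anti-IL4. The cultures began from enriched CD4+ T cells, not from sorted naive cells, so culture and starting cells cannot be told apart in a comparison with naive cells. The sources used here give no ages of the mice, and Th1 cultures without a compound were not analysed here.

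Sialic acid is the sugar that ends most glycan chains on the T cell surface, where it sets negative charge, hides the galactose that galectins bind and forms ligands of Siglecs and selectins. The enzymes are grouped by the bond they make. ST3Gal and ST6Gal enzymes join sialic acid to galactose at different carbons, ST6GalNAc enzymes join it to N-acetylgalactosamine, and ST8Sia enzymes join it to a sialic acid already in place. GCNT1 adds the branch that turns a core 1 O-glycan into core 2, and ST3GAL1 caps the same core 1 chain, so the enzymes draw on a common substrate. T cells are known to exchange sialylated core 1 for branched core 2 O-glycans when they become effector cells, and core 2 chains on PSGL-1 are needed for binding to P-selectin.

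Promoters are printed first for the 4 members with the largest fold differences between YFPpos and naive cells: St8sia6 and St6gal1, which were lower in YFPpos cells, and St6galnac4 and Gcnt1, which were higher. The sequences are from RefSeq on build GRCm38.p6, each 300 bases around an annotated start and written 5′ to 3′ on the gene's strand. Capitals mark a GC box, searched as GGGCGG on both strands, so that CCGCCC is a match on the other strand, and in the St6gal1 promoter of start 3 an AP-1 motif. The table held 13 promoters for 8 of the 10 members, and St3gal1 and St3gal2 had no entry. St8sia6 has 1 promoter there, at chr2:13793471-13793770 on the minus strand, and 72% of its bases are G or C.
St8sia6: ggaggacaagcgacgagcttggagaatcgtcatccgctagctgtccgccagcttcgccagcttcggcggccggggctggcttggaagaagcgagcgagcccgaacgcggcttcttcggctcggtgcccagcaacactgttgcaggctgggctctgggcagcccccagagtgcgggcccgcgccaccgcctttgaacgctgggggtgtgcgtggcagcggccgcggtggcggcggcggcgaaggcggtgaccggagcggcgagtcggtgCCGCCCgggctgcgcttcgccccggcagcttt
St6gal1 has 3 promoters on the plus strand, at chr16:23224490-23224789, chr16:23225771-23226070 and chr16:23290220-23290519, with 48%, 50.7% and 49.7% G or C.
St6gal1 start 1: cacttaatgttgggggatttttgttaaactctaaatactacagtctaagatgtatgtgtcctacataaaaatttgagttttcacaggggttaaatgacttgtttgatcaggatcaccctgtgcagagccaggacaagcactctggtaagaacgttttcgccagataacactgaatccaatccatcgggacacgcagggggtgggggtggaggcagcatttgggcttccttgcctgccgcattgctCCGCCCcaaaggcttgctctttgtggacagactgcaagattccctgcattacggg
St6gal1 start 2: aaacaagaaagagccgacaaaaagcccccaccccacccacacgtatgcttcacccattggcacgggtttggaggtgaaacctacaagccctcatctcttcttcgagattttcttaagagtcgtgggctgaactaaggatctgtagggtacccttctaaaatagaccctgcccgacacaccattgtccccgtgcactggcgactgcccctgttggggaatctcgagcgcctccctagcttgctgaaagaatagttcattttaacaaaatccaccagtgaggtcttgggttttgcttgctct
St6gal1 start 3: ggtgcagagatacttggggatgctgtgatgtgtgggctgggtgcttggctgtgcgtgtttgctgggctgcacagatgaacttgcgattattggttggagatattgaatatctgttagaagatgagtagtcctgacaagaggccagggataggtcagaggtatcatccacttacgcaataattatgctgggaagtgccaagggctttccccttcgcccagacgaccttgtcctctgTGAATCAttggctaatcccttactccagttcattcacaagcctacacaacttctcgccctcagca
St6galnac4 has 1 promoter, at chr2:32586828-32587127 on the plus strand, with 65.7% G or C.
St6galnac4: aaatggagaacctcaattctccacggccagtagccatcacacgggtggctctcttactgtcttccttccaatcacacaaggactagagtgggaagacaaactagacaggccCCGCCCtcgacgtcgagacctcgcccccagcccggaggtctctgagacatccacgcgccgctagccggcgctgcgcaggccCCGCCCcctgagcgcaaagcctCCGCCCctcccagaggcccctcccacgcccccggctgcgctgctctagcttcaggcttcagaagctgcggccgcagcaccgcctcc
Gcnt1 has 3 promoters on the minus strand, at chr19:17372795-17373094, chr19:17356618-17356917 and chr19:17339456-17339755, with 40.7%, 58.7% and 52% G or C.
Gcnt1 start 1: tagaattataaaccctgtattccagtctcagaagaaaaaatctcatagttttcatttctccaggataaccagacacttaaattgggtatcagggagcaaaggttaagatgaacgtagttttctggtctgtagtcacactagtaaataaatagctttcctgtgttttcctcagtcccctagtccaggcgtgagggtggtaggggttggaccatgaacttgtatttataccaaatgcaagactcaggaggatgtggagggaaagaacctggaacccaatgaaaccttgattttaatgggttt
Gcnt1 start 2: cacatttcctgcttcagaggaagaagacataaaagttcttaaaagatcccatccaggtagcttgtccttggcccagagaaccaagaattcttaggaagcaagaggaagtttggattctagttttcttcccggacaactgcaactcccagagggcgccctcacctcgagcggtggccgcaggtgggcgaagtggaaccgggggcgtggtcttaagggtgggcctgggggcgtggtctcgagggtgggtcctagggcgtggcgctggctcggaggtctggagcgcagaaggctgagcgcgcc
Gcnt1 start 3: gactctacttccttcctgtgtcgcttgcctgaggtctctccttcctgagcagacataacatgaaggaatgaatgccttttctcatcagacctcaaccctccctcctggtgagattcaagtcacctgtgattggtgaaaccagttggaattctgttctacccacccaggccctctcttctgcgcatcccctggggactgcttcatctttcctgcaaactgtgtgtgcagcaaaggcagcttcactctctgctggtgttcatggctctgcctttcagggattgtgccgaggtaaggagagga
The St8sia6 promoter held 1 GC box, that of St6gal1 start 1 held 1, that of St6galnac4 held 3 and those of Gcnt1 held none. A GC box stood in 7 of the 13 member promoters and in 35.7% of all 32851 promoters in the table, whose median was 52.7% G or C. A T-box motif (GGTGTGA), which T-bet is known to bind, stood in none of the 13 and in 3.98% of all promoters, and an ETS motif (CCGGAAG) stood in none and in 8.86%. An AP-1 motif (TGANTCA) stood in 1, that of St6gal1 start 3, and in 7.81% of all. No match of one motif overlapped a match of another in these promoters. Which start was in use cannot be read from counts per gene.

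Total counts were 14486577 to 31614057 per library, and levels are given as CPM, which are counts scaled to a common library size. The reporter sort could be checked on Ifng, which averaged 645 CPM in YFPpos SGC0946, 66.8 in YFPneg SGC0946, 737 in YFPpos SGC0649, 33.8 in YFPneg SGC0649 and 0.0623 in naive cells. The 5 markers of CD4 T cells summed to 2300 to 2830 CPM in cultured libraries and to 3920 to 4060 CPM in naive libraries. The 6 B cell markers summed to 1.62 to 2.84 CPM in naive libraries and to at most 1.37 CPM in any cultured library. In naive cells Cd79a (1.09 CPM) and Cd79b (0.763 CPM) made most of that sum, while Ms4a1 was at 0. A pair of libraries stood apart. YFPpos SGC0946 replicate 92 had 3.61% unmapped reads, while its group's other libraries had 7.58% and 8.12%, and YFPneg SGC0946 replicate 93 had the smallest total. Results that change without either are given with both values. Replicates carry the numbers of their titles, and the design text calls them biological replicates. Whether each came from its own animal is not stated, and p-values measure only the spread between these samples, which may be technical. In bulk RNA, fewer cells with a transcript cannot be told apart from less transcript per cell.

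**Figure D1:**
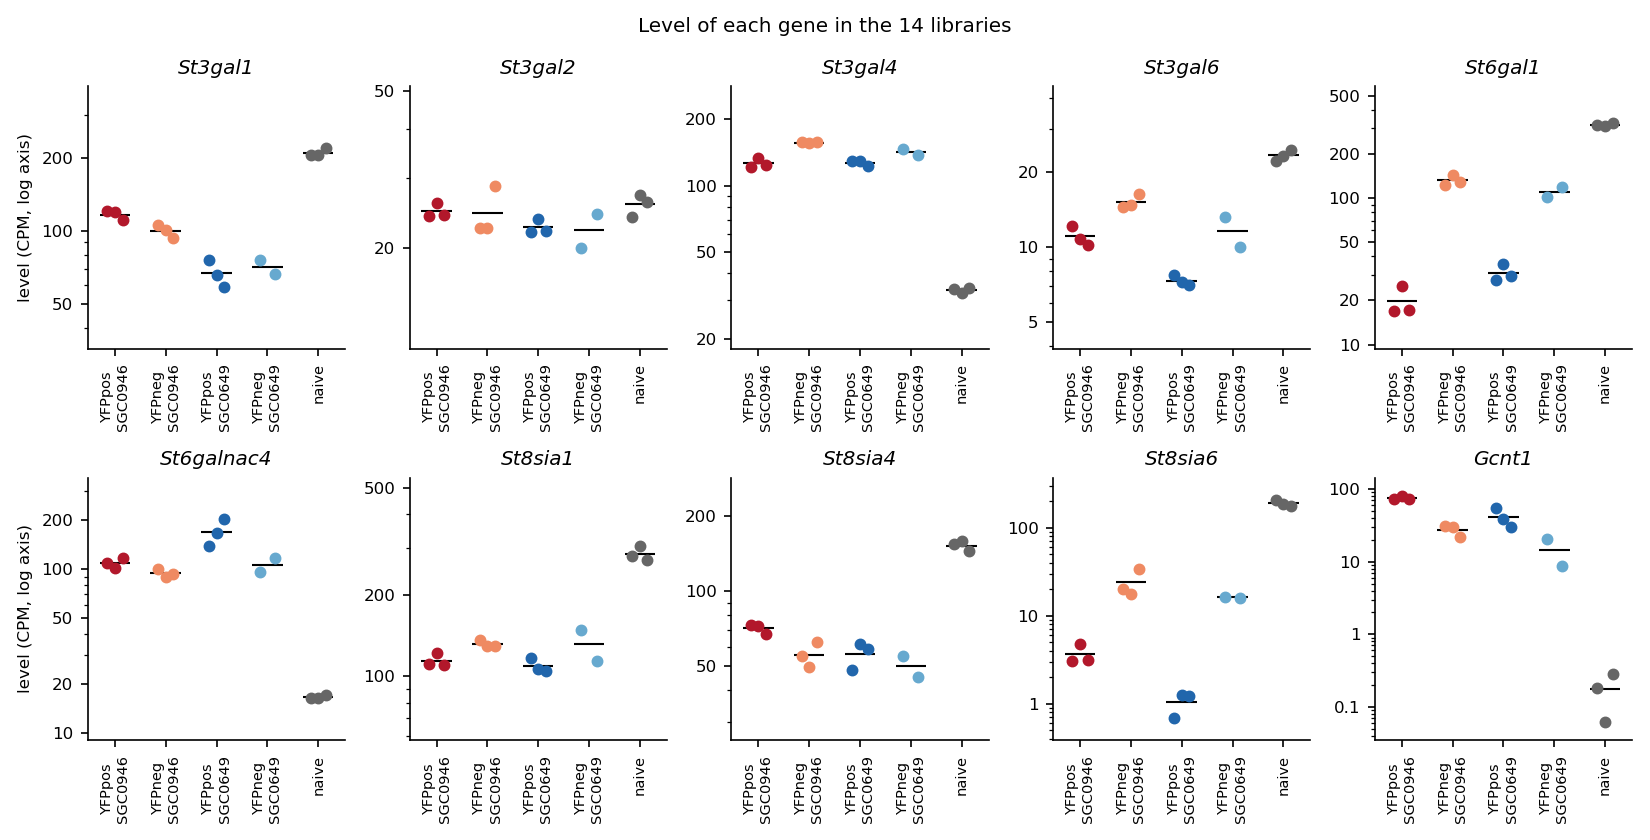
Level of each of the 10 genes in CPM on a log axis, with 1 point per library and a bar at the group mean. St6gal1 and St8sia6 stand highest in naive cells and lowest in YFPpos cells, Gcnt1 shows the opposite order, and St3gal2 lies between 19.9 and 28.7 CPM in all 14 libraries.

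The first question is how cultured cells differed from naive cells. In each of the 4 cultured groups Gcnt1, St6galnac4 and St3gal4 were higher than in naive cells, and St8sia6, St6gal1, St3gal1, St3gal6, St8sia1 and St8sia4 were lower. These 9 of 10 genes passed edgeR's quasi-likelihood test (adjusted p under 0.05, Benjamini-Hochberg over all genes tested), and St3gal2 did not. In each comparison 3 of the 10 rose and 6 fell. Most genes passed these tests: 80.7% of all genes in YFPpos SGC0946 (42.2% higher, 38.5% lower), 72.9% in YFPneg SGC0946 (38.6% higher, 34.3% lower), 79.8% in YFPpos SGC0649 (42.6% higher, 37.3% lower) and 69% in YFPneg SGC0649 (36.4% higher, 32.6% lower). The median absolute log2 fold change of the 10 genes was 1.61, 1.36, 1.8 and 1.58 in the same order, against 0.90, 0.64, 0.90 and 0.66 over all genes. The members were chosen with earlier results of these data known, so these medians and those below are a description only. The 4 comparisons share the naive libraries and are not independent of each other.

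**Figure D2:**
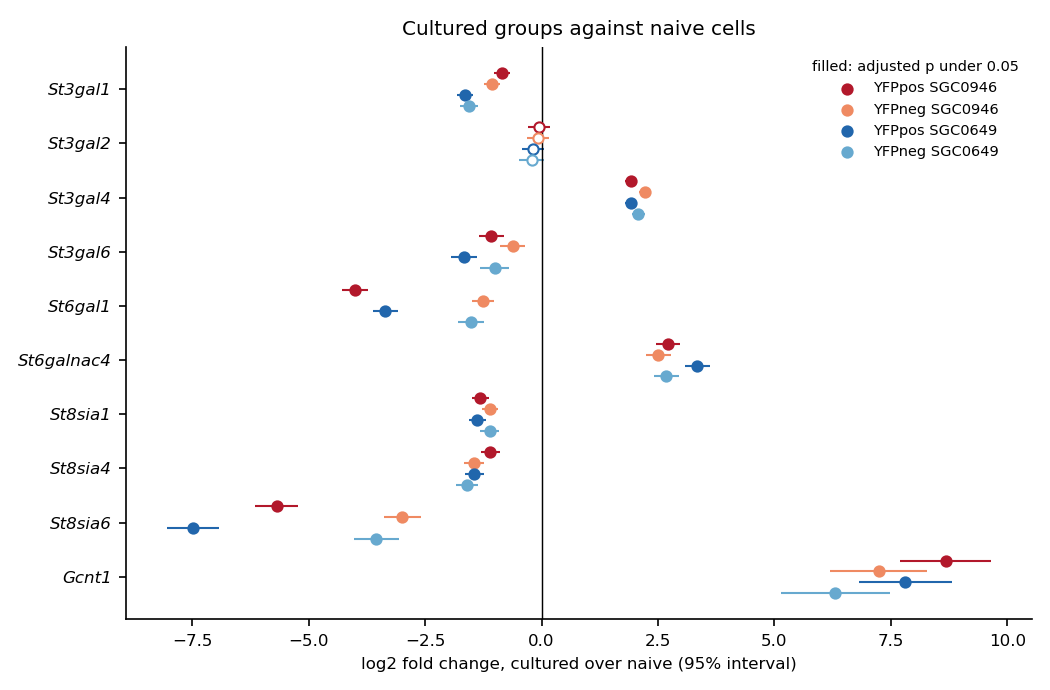
Log2 fold change of each gene in each cultured group over naive cells, with 95% intervals. Filled points passed an adjusted p of 0.05 and open points did not; only St3gal2 is open, and the other 9 genes lie on 1 side of 0 in all 4 comparisons.

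Among enzymes of the ST3Gal family, St3gal1 (ENSMUSG00000013846, chromosome 15, 67102875 to 67176830, minus strand, GRCm38), the enzyme that caps core 1 O-glycans, was highest in naive cells. It had 121, 119 and 111 CPM in YFPpos SGC0946, 106, 101 and 94.0 CPM in YFPneg SGC0946, 75.8, 66.0 and 59.1 CPM in YFPpos SGC0649 and 76.1 and 66.6 CPM in YFPneg SGC0649, against 206, 206 and 220 CPM in naive cells. Every cultured library was below every naive library, and both SGC0946 groups were above both SGC0649 groups. Its log2 fold change over naive cells was -0.85 (SE 0.08) in YFPpos SGC0946, -1.07 (SE 0.08) in YFPneg SGC0946, -1.65 (SE 0.08) in YFPpos SGC0649 and -1.56 (SE 0.10) in YFPneg SGC0649.

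St3gal4 (ENSMUSG00000032038, chromosome 9, 35046576 to 35119268, minus strand), which sialylates lactosamine chains and takes part in making selectin ligands, moved the other way. It had 122, 133 and 124 CPM in YFPpos SGC0946, 157, 155 and 158 CPM in YFPneg SGC0946, 130, 130 and 122 CPM in YFPpos SGC0649 and 146 and 137 CPM in YFPneg SGC0649, against 33.9, 32.6 and 34.3 CPM in naive cells. All cultured libraries were above all naive libraries, and the YFPneg groups were above the YFPpos groups. Its log2 fold changes over naive cells were 1.91, 2.22, 1.92 and 2.08 in the same order (SE 0.06 each). An opposite-strand gene, 4930581F22Rik, covers 14.1% of its exon bases, and the counts are labelled as reverse-stranded.

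St3gal6 (ENSMUSG00000022747, chromosome 16, 58468125 to 58524243, minus strand), which sialylates similar chains, averaged 11.1 CPM ± 1.05 in YFPpos SGC0946, 15.3 ± 0.936 in YFPneg SGC0946, 7.35 ± 0.343 in YFPpos SGC0649, 11.6 ± 2.29 in YFPneg SGC0649 and 23.4 ± 1.27 in naive cells (SD, n = 3, n = 2 for YFPneg SGC0649). It was lower in every cultured group than in naive cells, by log2 fold changes of -1.08 (SE 0.13), -0.62 (SE 0.13), -1.67 (SE 0.13) and -1.01 (SE 0.15). The protein-coding gene Dcbld2 lies on the opposite strand over 26% of its exon bases and was at 7.07, 2.90, 4.24, 1.66 and 0.159 CPM in the same 5 groups, an order that differs from that of St3gal6. St3gal2 (ENSMUSG00000031749, chromosome 8, 110919922 to 110972480, plus strand), which acts on O-glycans and gangliosides, averaged 24.8 CPM ± 1.07 in YFPpos SGC0946, 24.5 ± 3.57 in YFPneg SGC0946, 22.5 ± 0.976 in YFPpos SGC0649, 22.2 ± 3.18 in YFPneg SGC0649 and 25.8 ± 1.67 in naive cells (SD, same n). Neighbouring groups in that order overlapped in every case. The St3gal2 differences from naive cells had 95% intervals of -0.29 to 0.18, -0.31 to 0.17, -0.43 to 0.04 and -0.48 to 0.05 on the log2 scale. For YFPpos SGC0649 the adjusted p was 0.12 with all libraries and 0.032 when the fit held only that group and naive cells, and for YFPneg SGC0649 it was 0.14 with all libraries and 0.044 without YFPneg SGC0649 replicate 62.

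St6gal1 (ENSMUSG00000022885, chromosome 16, 23224740 to 23360350, plus strand) adds the terminal sialic acid that CD22 recognises on N-glycans. It had 16.9, 25.0 and 17.3 CPM in YFPpos SGC0946, 123, 144 and 129 CPM in YFPneg SGC0946, 27.5, 35.4 and 29.5 CPM in YFPpos SGC0649 and 102 and 118 CPM in YFPneg SGC0649, against 313, 311 and 323 CPM in naive cells. The 5 groups did not overlap, and both YFPpos groups stood far below both YFPneg groups. St6gal1 was 16.0-fold lower than in naive cells in YFPpos SGC0946 and 10.3-fold lower in YFPpos SGC0649 (log2 fold changes -4.0 and -3.36, SE 0.13 each). In YFPneg cells it was 2.39-fold lower with SGC0946 (-1.26, SE 0.11) and 2.86-fold lower with SGC0649 (-1.52, SE 0.13). BC106179, an opposite-strand neighbour that overlaps 4.07% of its exon bases, had the same order of groups, with 0.0383, 10.9, 0.0926, 6.62 and 26.3 CPM in the 5 groups; its part in the St6gal1 values was not tested.

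St6galnac4 (ENSMUSG00000079442, chromosome 2, 32587095 to 32599698, plus strand) adds a second sialic acid to sialylated core 1 O-glycans. It had 109, 102 and 116 CPM in YFPpos SGC0946, 99.4, 89.1 and 93.4 CPM in YFPneg SGC0946, 138, 166 and 201 CPM in YFPpos SGC0649 and 95.6 and 116 CPM in YFPneg SGC0649, against 16.3, 16.3 and 17.0 CPM in naive cells. YFPpos SGC0649 was the highest group and the most variable, and its libraries did not overlap those of any other group. The log2 fold changes over naive cells were 2.72 (SE 0.12), 2.51 (SE 0.12), 3.35 (SE 0.12) and 2.68 (SE 0.13), which is 5.69-fold to 10.2-fold.

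The ST8Sia enzymes were all lower in cultured cells. St8sia6 (ENSMUSG00000003418, chromosome 2, 13651021 to 13794064, minus strand), which adds a second sialic acid mainly on O-glycans and in mice makes ligands of Siglec-E, showed the widest range of any member that fell. It had 3.07, 4.73 and 3.16 CPM in YFPpos SGC0946 (69, 119 and 103 reads), 20.2, 17.5 and 34.0 CPM in YFPneg SGC0946, 0.694, 1.24 and 1.21 CPM in YFPpos SGC0649 (16, 26 and 28 reads) and 16.3 and 15.9 CPM in YFPneg SGC0649, against 206, 184 and 175 CPM in naive cells. No 2 groups overlapped, and YFPneg SGC0946 replicate 93 was the highest cultured library. St8sia6 was 51.7-fold lower than in naive cells in YFPpos SGC0946, 7.94-fold lower in YFPneg SGC0946, 179-fold lower in YFPpos SGC0649 and 11.7-fold lower in YFPneg SGC0649 (log2 fold changes -5.69, -2.99, -7.49 and -3.55, SE 0.22, 0.19, 0.26 and 0.22).

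St8sia1 (ENSMUSG00000030283, chromosome 6, 142821545 to 142964452, minus strand), the synthase of ganglioside GD3, averaged 115 CPM ± 6.41 in YFPpos SGC0946, 132 ± 4.10 in YFPneg SGC0946, 110 ± 6.94 in YFPpos SGC0649, 132 ± 24.5 in YFPneg SGC0649 and 285 ± 17.0 in naive cells (SD, same n). The naive group stood apart, and each neighbouring pair of cultured groups in the order of the means overlapped. Its log2 fold changes over naive cells were -1.32, -1.11, -1.38 and -1.11 (SE 0.08 to 0.10). St8sia4 (ENSMUSG00000040710, chromosome 1, 95587682 to 95667571, minus strand), a polysialyltransferase, averaged 71.1 CPM ± 3.37, 55.7 ± 6.55, 56.1 ± 6.84, 50.3 ± 6.75 and 153 ± 7.44 in the same 5 groups. Here too the naive group was separate, and YFPpos SGC0946 lay above the other cultured groups without overlap. The log2 fold changes over naive cells were -1.10, -1.46, -1.45 and -1.60 (SE 0.10 to 0.11).

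Gcnt1 (ENSMUSG00000038843, chromosome 19, 17326141 to 17372844, minus strand) was nearly absent from naive cells. It had 72.6, 80.5 and 73.4 CPM in YFPpos SGC0946, 31.0, 30.5 and 21.7 CPM in YFPneg SGC0946, 55.5, 39.2 and 29.8 CPM in YFPpos SGC0649 and 20.6 and 8.63 CPM in YFPneg SGC0649, against 0.180, 0.0623 and 0.284 CPM in naive cells, which were 3, 1 and 5 reads. All cultured libraries were far above the naive ones, YFPpos SGC0946 was the highest group, and YFPpos SGC0649 overlapped YFPneg SGC0946. Fitted log2 fold changes over naive cells were 8.68 (SE 0.46), 7.23 (SE 0.50), 7.81 (SE 0.48) and 6.31 (SE 0.56), and with 9 naive reads in all their size is imprecise.

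Levels can be compared between genes only per length, as CPM per kilobase of exon (RPKM). On that scale St3gal4 was the highest of the 9 sialyltransferases in every cultured group, at 43.2, 53.7, 43.5 and 48.5 RPKM. In naive cells St6gal1 was the highest of the 9, at 64.2 RPKM. The 9 sialyltransferases summed to 102 to 108 RPKM in YFPpos SGC0946, 136 to 138 in YFPneg SGC0946, 103 to 107 in YFPpos SGC0649, 122 to 124 in YFPneg SGC0649 and 180 to 181 in naive cells. The summed level of these 9 was thus lowest in YFPpos cells of either compound. The sum leaves out the 5 other sialyltransferases that were tested, none of which fell against naive cells. The ratio of Gcnt1 to St3gal1, enzymes that compete for core 1, was 0.716, 0.801 and 0.788 in YFPpos SGC0946, 0.347, 0.358 and 0.274 in YFPneg SGC0946, 0.870, 0.708 and 0.600 in YFPpos SGC0649 and 0.322 and 0.154 in YFPneg SGC0649, and at most 0.00153 in naive cells. The YFPpos and YFPneg ratios did not overlap, whereas those of the 2 compounds overlapped within YFPpos cells.

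**Figure D3:**
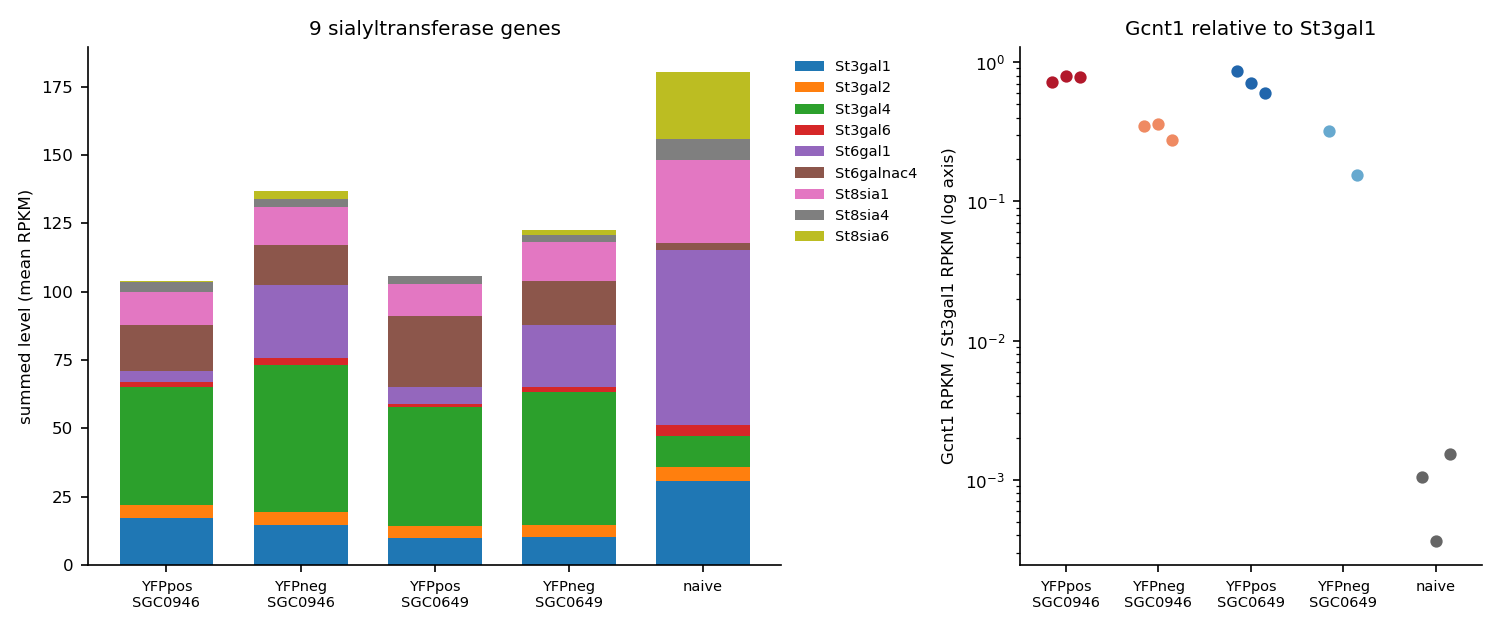
Left, mean RPKM of the 9 sialyltransferases stacked for each group. Right, ratio of Gcnt1 to St3gal1 RPKM, 1 point per library. St6gal1 makes the largest part in naive cells and St3gal4 in cultured cells, and the ratio is 0.6 to 0.87 in YFPpos cells and 0.154 to 0.358 in YFPneg cells.

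The second question is how reporter-positive cells differed from reporter-negative cells after culture with the same compound. With either compound, YFPpos cells had lower St6gal1, St8sia6, St3gal6, St3gal4 and St8sia1 and higher Gcnt1. In SGC0946 cultures 3 of the 10 genes rose, 5 fell and 2 did not pass the test, where 54.7% of all genes passed (26.9% higher, 27.8% lower). In SGC0649 cultures 2 rose, 5 fell and 3 did not pass, where 45.2% of all genes passed (23.9% higher, 21.3% lower). The median absolute log2 fold change of the 10 genes was 0.33 with SGC0946 and 0.47 with SGC0649, against 0.37 and 0.34 over all genes.

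**Figure D4:**
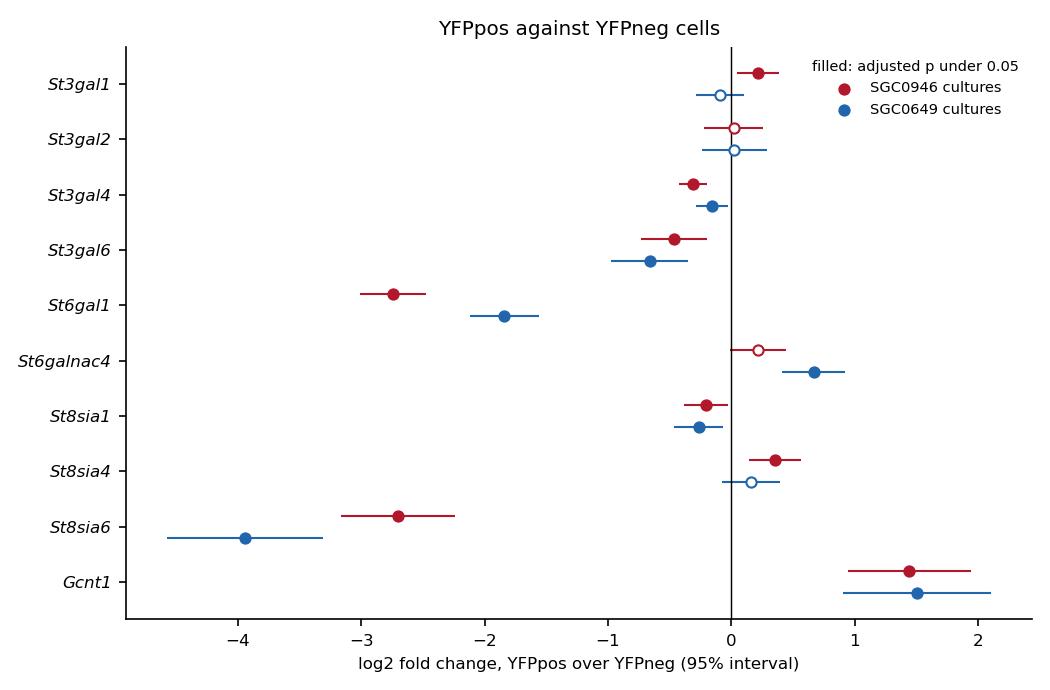
Log2 fold change of YFPpos over YFPneg cells for each gene and compound, with 95% intervals. Filled points passed an adjusted p of 0.05 and open points did not; St6gal1 and St8sia6 lie at -1.84 or below and Gcnt1 near 1.5 with both compounds.

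St8sia6 and St6gal1 showed the largest differences. St6gal1 was 6.70-fold lower in YFPpos than in YFPneg cells with SGC0946 (log2 fold change -2.74, SE 0.13, adjusted p = 3e-11) and 3.58-fold lower with SGC0649 (-1.84, SE 0.13, adjusted p = 1.2e-08). St8sia6 was 6.51-fold lower with SGC0946 (-2.70, SE 0.22, adjusted p = 2.6e-08) and 15.4-fold lower with SGC0649 (-3.94, SE 0.30, adjusted p = 2.3e-08). Without YFPneg SGC0946 replicate 93 the St8sia6 value was -2.37, and without YFPpos SGC0946 replicate 92 it was -2.92. Gcnt1 was 2.71-fold higher with SGC0946 (1.44, SE 0.24, adjusted p = 6.9e-05) and 2.84-fold higher with SGC0649 (1.5, SE 0.28, adjusted p = 0.00039). With 1 library left out, the Gcnt1 value with SGC0649 ran from 1.01 to 2.27. It was 2.27 without YFPneg SGC0649 replicate 61, since the remaining YFPneg library had 8.63 CPM.

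St3gal6 fell with SGC0946 (-0.46, SE 0.13, adjusted p = 0.0055) and with SGC0649 (-0.66, SE 0.15, adjusted p = 0.0014). St6galnac4 rose with SGC0649 (0.67, SE 0.12, adjusted p = 0.00027), while its value with SGC0946 was 0.21 (SE 0.11, adjusted p = 0.10). That SGC0946 value passed the test with the size factors of DESeq2 (adjusted p = 0.044), in DESeq2 itself (0.042) and in a fit of the SGC0946 sorts alone (0.038). St8sia4 rose with SGC0946 (0.35, SE 0.10, adjusted p = 0.0063) and was 0.16 with SGC0649 (adjusted p = 0.27). St3gal2 was 0.02 with either compound, with intervals of -0.22 to 0.25 and -0.24 to 0.29.

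Several smaller differences lost their call under an alternative. St3gal4 was -0.31 with SGC0946 (SE 0.05, adjusted p = 0.00013) and -0.16 with SGC0649 (SE 0.06, adjusted p = 0.045, 0.037 to 0.27 over the alternatives). The St3gal4 call with SGC0649 was lost without YFPneg replicate 61 (0.27) and without YFPpos replicate 61 (0.055), 62 (0.068) or 63 (0.11), with DESeq2 size factors (0.058), with no filter (0.072) and in a fit of the SGC0649 sorts alone (0.051). St8sia1 was -0.21 with SGC0946 (adjusted p = 0.046, 0.024 to 0.14 over the alternatives) and -0.27 with SGC0649 (0.027, 0.0012 to 0.65). The St8sia1 call with SGC0946 was lost without YFPneg replicate 91 (0.11), 92 (0.059) or 93 (0.06) and without YFPpos replicate 91 (0.13) or 93 (0.14), with DESeq2 size factors (0.13) and in DESeq2 (0.14). With SGC0649 it was lost in a fit of those sorts alone (0.053), without YFPpos replicate 62 (0.076) or 63 (0.069) and without YFPneg replicate 61, where the value was -0.06 (0.65), and without YFPneg replicate 62 the value was -0.44. St3gal1 was 0.22 with SGC0946 (SE 0.08, adjusted p = 0.033, 0.0066 to 0.11 over the alternatives) and lost its call without YFPneg replicate 92 (0.058) or 93 (0.11) and without YFPpos replicate 91 (0.10) or 92 (0.085). With SGC0649 it was -0.09 (adjusted p = 0.45).

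Other measures moved with the sort. Unmapped reads were 3.61% to 8.12% in YFPpos SGC0946 against 3.14% to 4.62% in YFPneg SGC0946, and 6.44% to 8.35% in YFPpos SGC0649 against 3.44% to 4.41% in YFPneg SGC0649. Tcf7, a transcription factor of naive T cells, averaged 89.5 CPM in YFPpos SGC0946 against 810 in YFPneg SGC0946, 154 in YFPpos SGC0649 against 734 in YFPneg SGC0649, and 1939 in naive cells. Lef1, its relative, averaged 103 CPM in YFPpos SGC0946 against 227 in YFPneg SGC0946, 145 in YFPpos SGC0649 against 273 in YFPneg SGC0649, and 616 in naive cells. The homing receptor gene Ccr7 averaged 390 CPM in YFPpos SGC0946 against 870 in YFPneg SGC0946, 630 in YFPpos SGC0649 against 833 in YFPneg SGC0649, and 503 in naive cells. St6gal1 and St8sia6, like Tcf7 and Lef1, were thus lowest in YFPpos cells and highest in naive cells. The means of St3gal6 and St8sia1 stood in the same order, with smaller differences between the sorts. The 4 regulatory T cell markers summed to 3460 to 3740 CPM in YFPpos SGC0946 against 1370 to 1810 in YFPneg SGC0946, and to 3040 to 3170 in YFPpos SGC0649 against 1680 to 1790 in YFPneg SGC0649, of which Il2ra, which activated T cells also express, made most. Foxp3, the defining marker of that list, had the opposite order, with 2.31 CPM in YFPpos SGC0946 against 14.9 in YFPneg SGC0946 and 16.2 in YFPpos SGC0649 against 30.3 in YFPneg SGC0649. In naive cells the 4 markers summed to 111 to 183 CPM, while Foxp3 averaged 50.1 CPM, more than in any cultured group. Ikzf2, also of that list, averaged 40.5 CPM in naive cells and 3.03 to 3.53 CPM in the cultured groups. The part of these measures in the results above, also against naive cells, was not tested. Without YFPpos SGC0946 replicate 92, the library of that group with few unmapped reads, St6gal1 was -2.95 and Gcnt1 was 1.39.

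The third question is how SGC0946 differed from its inactive control SGC0649 at the same dose and time, compared for 1 pair of compounds in each of the 2 sorts. In YFPpos cells, SGC0946 went with higher St8sia6, Gcnt1, St3gal1, St3gal6 and St8sia4 and lower St6gal1 and St6galnac4. That is 5 genes that rose, 2 that fell and 3 that did not pass, where 12.1% of all genes rose, 15.7% fell and 27.7% passed in either direction. In YFPneg cells St3gal1 rose and the other 9 did not pass, where 8.63% of all genes passed (4.99% higher, 3.64% lower). The median absolute log2 fold change of the 10 genes was 0.606 in YFPpos cells and 0.217 in YFPneg cells, against 0.201 and 0.175 over all genes. Among all genes called in YFPpos cells, 43.5% were higher with the scaling used here and 55.1% with the size factors of DESeq2.

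**Figure D5:**
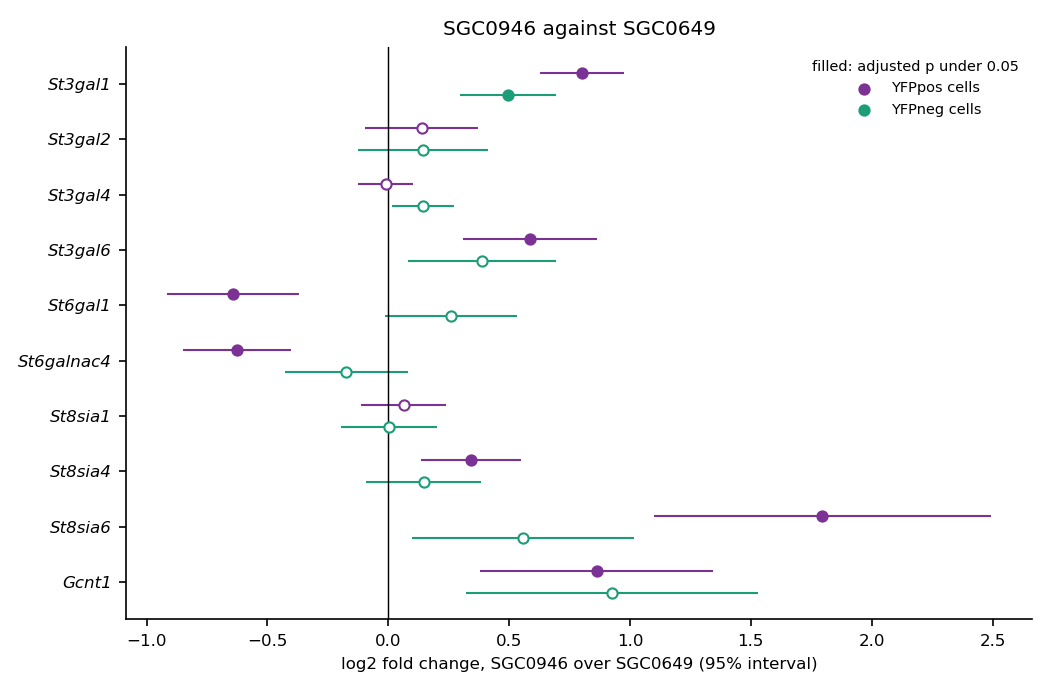
Log2 fold change of SGC0946 over SGC0649 for each gene in YFPpos and in YFPneg cells, with 95% intervals. Filled points passed an adjusted p of 0.05 and open points did not; in YFPpos cells the values run from -0.64 for St6gal1 to 1.8 for St8sia6.

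In YFPpos cells St3gal1 was 1.74-fold higher with SGC0946 (log2 fold change 0.80, SE 0.08, adjusted p = 5.5e-06), with 111 to 121 CPM against 59.1 to 75.8 CPM with SGC0649. St8sia6 was 3.47-fold higher (1.8, SE 0.33, adjusted p = 0.0009), with 3.07 to 4.73 CPM against 0.694 to 1.24 CPM with SGC0649. Gcnt1 was 1.82-fold higher (0.86, SE 0.23, adjusted p = 0.010, 0.00082 to 0.059 over the alternatives). Without YFPpos SGC0649 replicate 63, the lowest library of its group, the Gcnt1 value was 0.67 and its adjusted p 0.059. St3gal6 was 1.5-fold higher (0.59, SE 0.13, adjusted p = 0.0036).

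St8sia4 was 1.27-fold higher (0.34, SE 0.10, adjusted p = 0.016, 0.0019 to 0.070 over the alternatives), and lost its call without YFPpos SGC0946 replicate 91 (0.055) or 92 (0.057) or YFPpos SGC0649 replicate 61 (0.07). St6gal1 was 1.56-fold lower (-0.64, SE 0.13, adjusted p = 0.0017) and St6galnac4 was 1.54-fold lower (-0.63, SE 0.11, adjusted p = 0.00047). These were the members that fell, with 16.9 to 25.0 CPM against 27.5 to 35.4 CPM for St6gal1 and 102 to 116 CPM against 138 to 201 CPM for St6galnac4. Without YFPpos SGC0946 replicate 92 the St6gal1 value was -0.84 and that of St8sia6 was 1.57. The intervals of the members that did not pass were -0.10 to 0.37 for St3gal2, -0.13 to 0.10 for St3gal4 and -0.11 to 0.24 for St8sia1.

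In YFPneg cells St3gal1 was 1.41-fold higher with SGC0946 (0.49, SE 0.09, adjusted p = 0.0057, 8.5e-05 to 0.076 over the alternatives), with 94.0 to 106 CPM against 66.6 and 76.1 CPM with SGC0649. The call was lost without YFPneg SGC0649 replicate 62 (0.076). Gcnt1 was 0.93 (SE 0.28, adjusted p = 0.054), with an interval of 0.32 to 1.53. It passed the test without YFPneg SGC0649 replicate 61 (value 1.69, adjusted p = 0.011), without YFPneg SGC0946 replicate 93 (0.027) and with no filter on low counts (0.017), but was 0.43 (0.38) without YFPneg SGC0649 replicate 62. St8sia6 was 0.56 (interval 0.10 to 1.01, adjusted p = 0.11). Without YFPneg SGC0946 replicate 93 it was 0.23, and without YFPneg SGC0946 replicate 92 its adjusted p was 0.037. St3gal6 was 0.39 (interval 0.08 to 0.70, adjusted p = 0.10, 0.044 to 0.50 over the alternatives), and was 0.60 without YFPneg SGC0649 replicate 61 and 0.20 without replicate 62. Intervals of the others were -0.01 to 0.53 for St6gal1, -0.43 to 0.08 for St6galnac4, 0.02 to 0.27 for St3gal4, -0.09 to 0.38 for St8sia4, -0.12 to 0.41 for St3gal2 and -0.19 to 0.20 for St8sia1. The 5 markers of NK cells summed to 25.6 to 32.2 CPM in YFPpos SGC0946 against 79.7 to 167 in YFPpos SGC0649, and to 69.2 to 121 in YFPneg SGC0946 against 129 to 159 in YFPneg SGC0649. Eomes, which T cells also express, made most of that sum, with 21.3 CPM in YFPpos SGC0946 against 117 in YFPpos SGC0649, while Klre1 was at 6.89 CPM in YFPpos SGC0946 against 2.52 in YFPpos SGC0649. Ncr1, Klra8 and Klrb1c averaged at most 0.0796 CPM in any cultured group. The part of these markers in the differences between compounds was not tested.

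Whether the effect of SGC0946 differed between the sorts was tested as an interaction, by subtracting its effect in YFPneg cells from its effect in YFPpos cells. St6gal1 passed, with -0.90 (SE 0.18, interval -1.29 to -0.52, adjusted p = 0.021, 0.0011 to 0.11 over the alternatives), where 1.15% of all genes passed (0.259% higher, 0.891% lower). St6gal1 was thus lower with SGC0946 in YFPpos cells (-0.64), while in YFPneg cells its value was 0.26. The call was lost in a fit of the 4 cultured groups alone (0.10), and without YFPneg SGC0649 replicate 61 (0.11), YFPpos SGC0649 replicate 62 (0.073) or YFPpos SGC0946 replicate 91 (0.067) or 93 (0.071). For St8sia6 the difference was 1.24 (adjusted p = 0.17), and without YFPneg SGC0946 replicate 93 it was 1.57 (0.011). For St6galnac4 it was -0.45 (adjusted p = 0.22, and 0.035 without YFPpos SGC0649 replicate 61), for St3gal1 0.31 (0.28) and for Gcnt1 -0.06 (0.96).

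Other genes of glycan synthesis were counted in 9 lists that hold 71 genes, of which 58 were tested. Against naive cells 25 rose and 22 fell in YFPpos SGC0946, 23 and 18 in YFPneg SGC0946, 26 and 24 in YFPpos SGC0649, and 18 and 21 in YFPneg SGC0649. Over all genes tested, 42.2%, 38.6%, 42.6% and 36.4% rose in the same order of groups, and 38.5%, 34.3%, 37.3% and 32.6% fell. Their median log2 fold change was 0.03, 0.06, 0.01 and 0.05 in that order, against 0.05, 0.05, 0.09 and 0.03 over all genes. Of the 5 tested genes among the other sialyltransferases, 3, 4, 4 and 2 rose and none fell in the same comparisons. St6galnac6, which acts on gangliosides, had log2 fold changes of 4.18, 2.90, 3.76 and 2.98. St3gal5, the synthase of ganglioside GM3, had 2.99, 3.11, 1.91 and 1.71.

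Genes of sialic acid supply split. Nans, the sialic acid synthase, rose in all 4 groups by 1.42, 0.84, 1.43 and 0.86 on the log2 scale, and Cmas, which activates sialic acid, by 0.89, 0.67, 0.59 and 0.30. Cmah, which converts the acetyl form of sialic acid to the glycolyl form, fell, with -3.45, -1.0, -3.73 and -1.25. The sialidases split as well, with Neu1 of the lysosome at -1.41, -1.02, -1.21 and -0.98 and Neu3 of the plasma membrane at 1.63, 1.18, 1.62 and 1.15, all of them past the test. Enzymes that complete selectin ligands rose in all 4 groups: the sulfotransferase Chst2 had 8.24, 8.48, 7.99 and 7.91, and the fucosyltransferase Fut7 had 6.41, 5.10, 6.32 and 5.62. With only 17 Chst2 reads and 20 Fut7 reads in the 3 naive libraries, the size of these values is imprecise. In the list of fucosylation and sulfation 4 of 7 tested genes rose in each comparison, and 2, 2, 3 and 2 fell. The shares over all genes in these comparisons are given above.

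Between YFPpos and YFPneg cells 17 of the 58 genes rose and 24 fell with SGC0946, and 14 rose and 15 fell with SGC0649. Over all genes tested, 26.9% rose and 27.8% fell with SGC0946, and 23.9% rose and 21.3% fell with SGC0649. Cmah fell by 2.45 with SGC0946 and by 2.47 with SGC0649 on the log2 scale, Fut7 rose by 1.31 and 0.70, Fut4, another fucosyltransferase, by 1.8 and 1.82, and Galnt3, which starts O-glycans, by 1.23 and 1.53. Galnt10, of the same family, fell by 1.64 and 1.31. Selplg, which encodes PSGL-1, fell by 0.41 and 0.43, and Cd44, a carrier of selectin ligands, rose by 0.84 and 1.15.

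Between compounds 12 of the 58 rose and 6 fell in YFPpos cells, and 8 rose and 1 fell in YFPneg cells. Over all genes tested, 12.1% rose and 15.7% fell in YFPpos cells, and 4.99% rose and 3.64% fell in YFPneg cells. In YFPpos cells B3gnt5, which starts a class of glycolipids, was 1.58 (SE 0.17, adjusted p = 1e-05), St6galnac2 2.22 (SE 0.53, adjusted p = 0.0056) and St3gal5 1.07 (SE 0.27, adjusted p = 0.0078). Cd24a, which encodes a heavily glycosylated surface protein, was 1.36 in YFPpos cells (adjusted p = 1e-05) and 1.05 in YFPneg cells (adjusted p = 0.0032). Mgat5, which branches N-glycans, was -1.22 in YFPpos cells (adjusted p = 2.7e-06) and -0.04 in YFPneg cells (0.87). Its interaction was -1.18 (SE 0.17, adjusted p = 0.0032), and it was the only gene of the 58 to pass that test. Of all genes tested, 1.15% passed it.

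The genes whose levels followed a member most closely were found by Pearson's r of log2 CPM over the 14 libraries, among 8986 genes whose log2 CPM averaged 3 or more. The libraries fall into 5 groups and share their depth and scaling between genes, so r is a description only. Gcnt1 was nearest to Nfil3 (r = 0.997), Cst7 and Scd1, and St6gal1 to Rnf145 (0.999), Samd9l and Ifi203. St8sia6 was nearest to Sorl1 (0.989), Cd1d1 and Insr, and St3gal1 to Cd3g (0.989), L1cam and Rab11fip4. St3gal4 was nearest to Fosl2 (0.996), Fbxo6 and Tpst1, and St6galnac4 to Shmt1 (0.996), Larp1 and Ppa1. St3gal6 was nearest to Maml2 (0.988), Sgk1 and Smpdl3a, St8sia1 to Dync1li2 (0.993), Srpk2 and Commd8, and St8sia4 to Rabgap1l (0.966), Angel1 and Atp6v0a2. St3gal2 had the weakest best match, Tcirg1 (0.826).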

How the data were processed

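The authors deposited a table of read counts per protein-coding gene for 14 libraries. Values are raw whole-number counts, per the file headers, with reverse-strand counting by the table's own label. The submitters' processing notes name featureCounts, edgeR and limma without versions and build GRCm38. No source used here names the aligner.

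The tests used edgeR 4.0.16 in R 4.3.3: filterByExpr by group (12343 of 22048 genes kept), TMM scaling, 1 quasi-likelihood model with a coefficient for each of the 5 groups, F tests for 9 comparisons and Benjamini-Hochberg adjustment over all genes tested, threshold 0.05. The standard error of a log2 fold change is its size over the root of its F value. Intervals are 95% intervals from the model. Exon lengths came from GENCODE release M21, which held 99.14% of the gene IDs. Alternatives used DESeq2 1.42.0, limma 3.58.1 (voom), other filters and scaling, fewer groups, replicate blocks and each library left out. The fit was also run on counts simulated with its own dispersions. Such a run cannot show whether the model suits these data, and its outcome is not given here.

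The members, the gene lists and the tests were chosen with earlier results of these data known. All members are named; from each pathway list up to 4 genes with the smallest p may be named, and for each member the 3 most alike genes. Depth was 14486577 to 31614057 counts per library, and precision is limited for St8sia6 in YFPpos cells and Gcnt1 in naive cells. The summed level of the naive T cell list is not reported here.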

Additional observations from a re-analysis of the deposited data

Results flagged for a closer look

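The St6gal1 response to SGC0946 differed between the sorts by a test of the difference itself: its effect in YFPpos cells less its effect in YFPneg cells came to -0.90 on the log2 scale (edgeR interaction, SE 0.18, adjusted p = 0.021, 0.0011 to 0.11 over the alternatives). St6gal1 was at 16.9 to 25.0 CPM in YFPpos SGC0946 against 27.5 to 35.4 CPM in YFPpos SGC0649, and at 123 to 144 CPM in YFPneg SGC0946 against 102 and 118 CPM in YFPneg SGC0649.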

How the results depend on the processing

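Over the alternatives other than leaving out a library, 542 of the single-gene values kept their direction and side of the threshold, 12 changed sign, 7 gained and 9 lost a call; with 1 library left out these were 505, 23, 7 and 25. None of the values that changed sign passed the test with all libraries. St3gal4 between compounds in YFPpos cells was 0.032 with DESeq2 size factors, 0.016 with no filter, 0.032 in DESeq2 and 0.031 with only the groups compared. St3gal2 in the interaction was 0.035, 0.009, 0.036, 0.006 (voom) and 0.024, and for YFPpos against YFPneg with SGC0649 -0.015 with only the groups compared. With 1 library left out, St3gal4 between compounds in YFPpos cells ran from -0.048 to 0.016, St3gal1 for the SGC0649 sort from -0.191 to 0.011, St3gal2 from -0.113 to 0.181 for the SGC0649 sort, from -0.051 to 0.141 for the SGC0946 sort and from -0.162 to 0.132 in the interaction, St8sia1 from -0.176 to 0.206 between compounds in YFPneg cells and from -0.146 to 0.236 in the interaction, St3gal6 in the interaction from -0.019 to 0.384 and Gcnt1 in the interaction from -0.827 to 0.428.

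Genes called between compounds in YFPneg cells were 1065, against 1615 in DESeq2, 199 with only the groups compared and 335 to 1520 with 1 library left out; members called were 1, against 2 with no filter and 0 to 3. In the interaction 142 genes were called, against 301, 56 and 61 to 241; members called were 1, against 0 with only the groups compared and 0 to 2, and 22.5% of calls were higher, against 32.8% with DESeq2 size factors. Between compounds in YFPpos cells 3424 genes were called, against 1886 to 3449 with 1 library left out, and 6 to 7 members. Members called in the sorts were 8 with SGC0946, against 6 to 7 with 1 library left out and up to 9 over all alternatives, and 7 with SGC0649, against 5 to 7. The cause was not tested; fewer libraries were fitted in the fits with only the groups compared and with 1 left out.

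The labels do not say whether YFPpos and YFPneg libraries with the same title number came from the same culture. Same-numbered libraries correlated at 0.036 to 0.147 in their deviations from group means. These values cannot decide it, since each mean rests on 2 or 3 libraries, and the main tests used no pairing. With the replicate block on the last digit, 2 members were called between compounds in YFPneg cells (Gcnt1, adjusted p = 0.010, added), the St3gal4 call in the SGC0649 sort was lost (-0.151, adjusted p = 0.076) and the St3gal2 interaction was 0.012. With the block on the whole number the St3gal2 interaction was 0.003, St3gal4 in the SGC0649 sort was also lost (adjusted p = 0.15), St6galnac4 in the SGC0946 sort was called (0.019), and 4342 genes were called in the SGC0649 sort against 5585. Depth limits St8sia6 in YFPpos SGC0649 (70 reads in 3 libraries) and Gcnt1 in naive cells (9 reads).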
